A study of Homo sapiens with 2 samples.

Results

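The genes that carry cells through G1 and into S phase were examined in PLC-8024 cells, a human hepatocellular carcinoma (HCC) cell line, with and without overexpression of GDF1. The set held 41 genes of the 58174 listed: G1 and S phase cyclins, cyclin-dependent kinases (CDKs), CDK inhibitors, the RB family, the E2F family, the kinases and cyclins that act on RNA polymerase II, and a few regulators such as MYC. They were taken by gene symbol, and each symbol matched 1 Ensembl identifier in both files. RNA was sequenced once from the control line, PLC-8024-CTR, which carried a control vector, and once from PLC-8024-GDF1. In PLC-8024-GDF1, human GDF1 had been introduced by lentivirus and transduced cells kept by puromycin selection. GDF1 is a ligand of the TGF-β superfamily. The comparison asks how the transcript levels of G1 control genes differed between the 2 lines.

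In G1, D-type cyclins bind CDK4 and CDK6, and these kinases begin the phosphorylation of RB. RB and its relatives hold E2F transcription factors in check, and their phosphorylation releases E2F, which drives the genes of S phase, cyclin E and cyclin A among them. Cyclin E and cyclin A then act with CDK2. The INK4 proteins inhibit CDK4 and CDK6, and the CIP/KIP proteins inhibit cyclin E-CDK2 and cyclin A-CDK2. TGF-β ligands are known to arrest many epithelial cells in G1, in part through induction of CDKN2B and repression of MYC and CDC25A.

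Levels are given in TPM, an abundance unit that corrects for gene length and for the total of each library, so levels of different genes can be set side by side. TPM carries no sequencing depth, so no counting error can be given. Since each line was sequenced once, no test was made and no value has a replicate error. All differences are between these 2 libraries. The change of a gene is the difference in log2(TPM + 1), with PLC-8024-CTR subtracted from PLC-8024-GDF1, and the pseudocount of 1 makes changes at low TPM smaller. A gene was said to have risen or fallen where this value passed 1 or -1, that is 2-fold, and where it reached at least 1 TPM in either library. Folds are plain TPM ratios. In bulk RNA, fewer cells that express a gene and less RNA per cell cannot be told apart, which applies above all to genes that vary over the cell cycle.

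The 2 libraries were checked first. The TPM of GDF1 was 2.096 in the control line and 4.64 with GDF1 introduced, and that of CERS1, a gene that overlaps it, was 13.3 and 9612. Of the 7 hepatocyte and liver cancer markers, all reached 1 TPM, and 5 of them fell. The keratins KRT8 and KRT18 were the highest of the 7, at 1424 and 1005 TPM in PLC-8024-CTR. PTPRC, the pan-leukocyte marker, and the stromal genes COL1A2 and DCN were listed at 0.0001 TPM in both libraries, a value shared by 34129 genes of PLC-8024-CTR and 33867 genes of PLC-8024-GDF1, while no gene was listed at 0. CD68 (33.1 and 13.2 TPM) and PECAM1 (23.2 and 22.2 TPM) were the exceptions among the fibroblast, immune and endothelial markers, with COL3A1 at 3.22 and 1.23 TPM. The summed TPM was 3.43 and 2.09 for the 5 fibroblast markers, 33.6 and 13.7 for the 4 immune markers, and 23.5 and 22.4 for the 3 endothelial markers. The part of the lower CD68 and hepatocyte markers in the results was not tested.

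Of the 41 genes, 36 reached at least 1 TPM in either library. None rose, 9 fell and 27 stayed within 2-fold. Of the 14929 genes that met this minimum, 4.82% rose and 9.61% fell, while 25% of the 36 members fell. The median log2 change was -0.42 for the members and -0.20 for all genes. With TPM rescaled so that the median of genes with at least 5 TPM, at -0.21, came to 0, 6.97% of all genes rose and 6.85% fell, and of the members none rose and 7 fell. Below 0 were 24 of the 36 members, and 12 were above it. The 9 that fell were CDK2, E2F6, CDK8, CDK4, E2F3, E2F5, CCNA2, CCNL1 and CDKN2B, with log2 changes from -2.74 to -1.09. RB1 and E2F3 reached 1 TPM only in PLC-8024-CTR, so they could enter the comparison only in the falling direction. Among the 34 members with at least 1 TPM in both libraries, a restriction chosen after the data were seen, 8 fell (23.5%). Of all 12867 genes under this restriction, 8.21% fell.

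**Figure D1:**
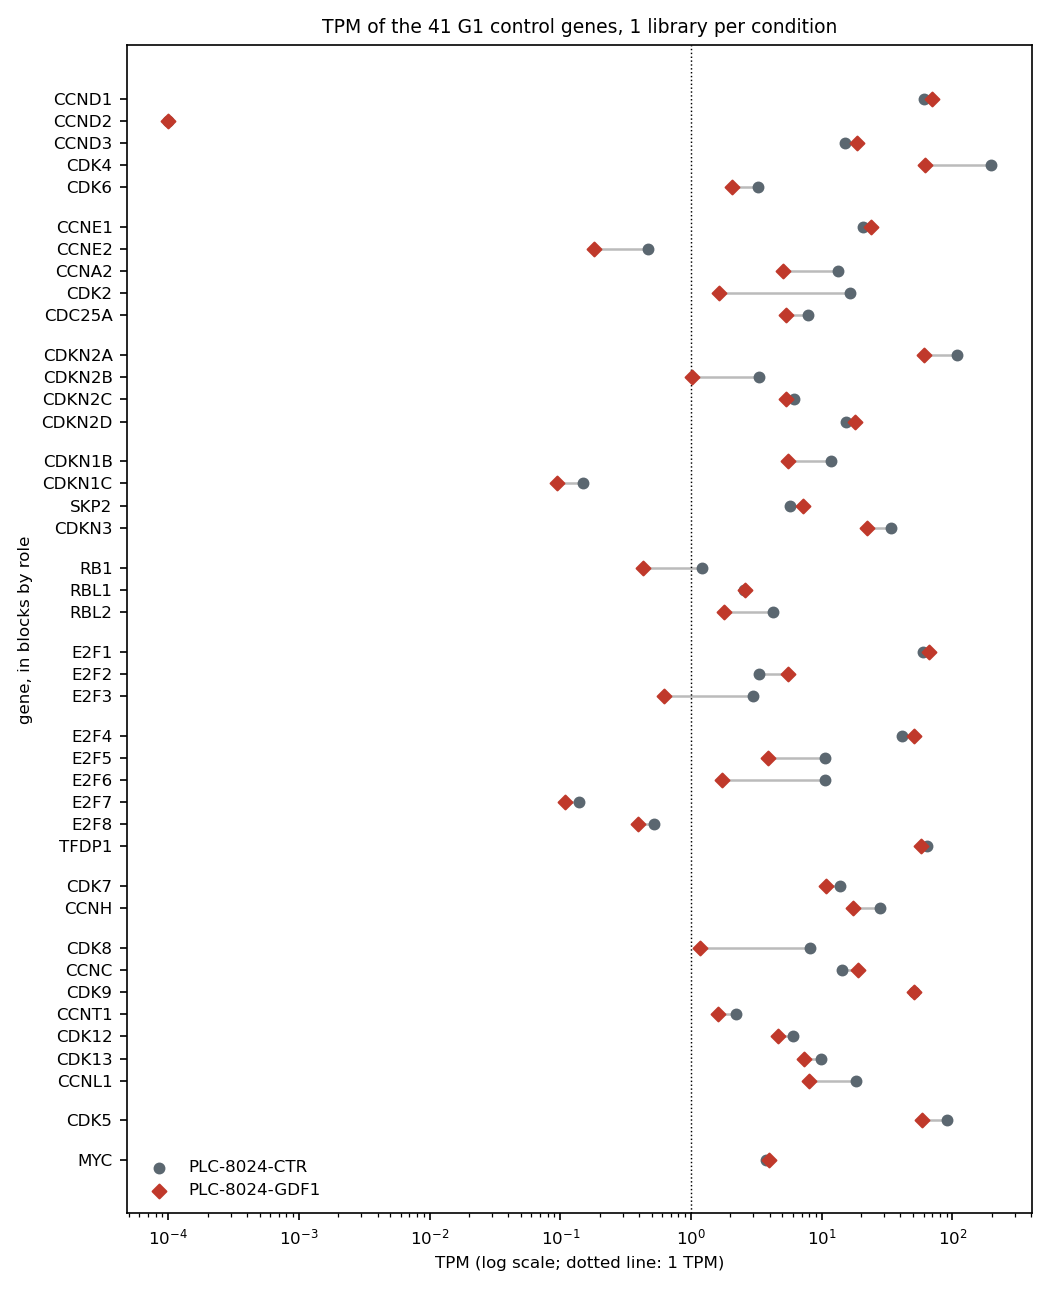
TPM of each of the 41 genes on a log axis in PLC-8024-CTR (grey circles) and PLC-8024-GDF1 (red diamonds), 1 library each, in blocks by role. The longest lines among genes over 1 TPM belong to CDK2, E2F6 and CDK8, all lower in PLC-8024-GDF1, while CCND2 was listed at 0.0001 TPM in both.

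Of the D-type cyclins and their kinases, CDK4 fell and the others stayed within 2-fold, apart from CCND2, which did not reach 1 TPM. CDK4 had the highest TPM of all members in PLC-8024-CTR, at 196.6 TPM, against 61.98 TPM in the GDF1 line, 3.17-fold lower (log2 change -1.65). Only 2.46% of all genes compared had a lower log2 change. CDK4 (ENSG00000135446) spans 58141510 to 58149796 of chromosome 12 (GRCh37, minus strand). CDK6, its close relative, was listed at 3.23 and 2.07 TPM (log2 change -0.46). CDK4 was thus 60.9 times as abundant as CDK6 in PLC-8024-CTR and 29.9 times in PLC-8024-GDF1.

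Cyclin D1 (CCND1) was at 60.3 TPM in the control and 69.7 TPM in the GDF1 line (log2 change 0.21). Cyclin D3 (CCND3) was listed at 15.0 and 18.5 TPM (log2 change 0.28), and cyclin D2 (CCND2) at 0.0001 TPM in both. CCND1 made up 80.1% of the added TPM of the D cyclins in PLC-8024-CTR and 79.1% in PLC-8024-GDF1. The added TPM of the D cyclins was 75.3 and 88.2, while that of CDK4 and CDK6 was 199.8 and 64.1. The D cyclins were therefore at 0.38 of the TPM of CDK4 and CDK6 in PLC-8024-CTR and at 1.38 in PLC-8024-GDF1. A ratio within a library does not depend on how the libraries are scaled to each other.

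The largest change of any member was that of CDK2, the kinase of the G1 to S transition. It went from 16.5 to 1.62 TPM, 10.2-fold lower (log2 change -2.74), and 0.41% of all genes compared had a lower value. CDK2 (ENSG00000123374) spans 56360565 to 56366573 of chromosome 12 (GRCh37, plus strand). Cyclin E1 (CCNE1), which activates CDK2 in late G1, was listed at 20.7 and 23.8 TPM (log2 change 0.20). Cyclin E2 (CCNE2) did not reach 1 TPM, at 0.47 and 0.18 TPM. Cyclin A2 (CCNA2), the S and G2 phase partner of CDK2, fell from 13.3 to 5.005 TPM, 2.66-fold (log2 change -1.25).

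CCNE1 made up 60.0% of the added TPM of the E and A cyclins in PLC-8024-CTR and 82.1% in PLC-8024-GDF1, and CCNA2 38.6% and 17.3%. Their added TPM was 34.4 and 29.0, or 2.09 times that of CDK2 in PLC-8024-CTR and 17.9 times in PLC-8024-GDF1. CDC25A, the phosphatase that removes inhibitory phosphates from CDK2, was listed at 7.82 and 5.37 TPM (log2 change -0.47).

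**Figure D2:**
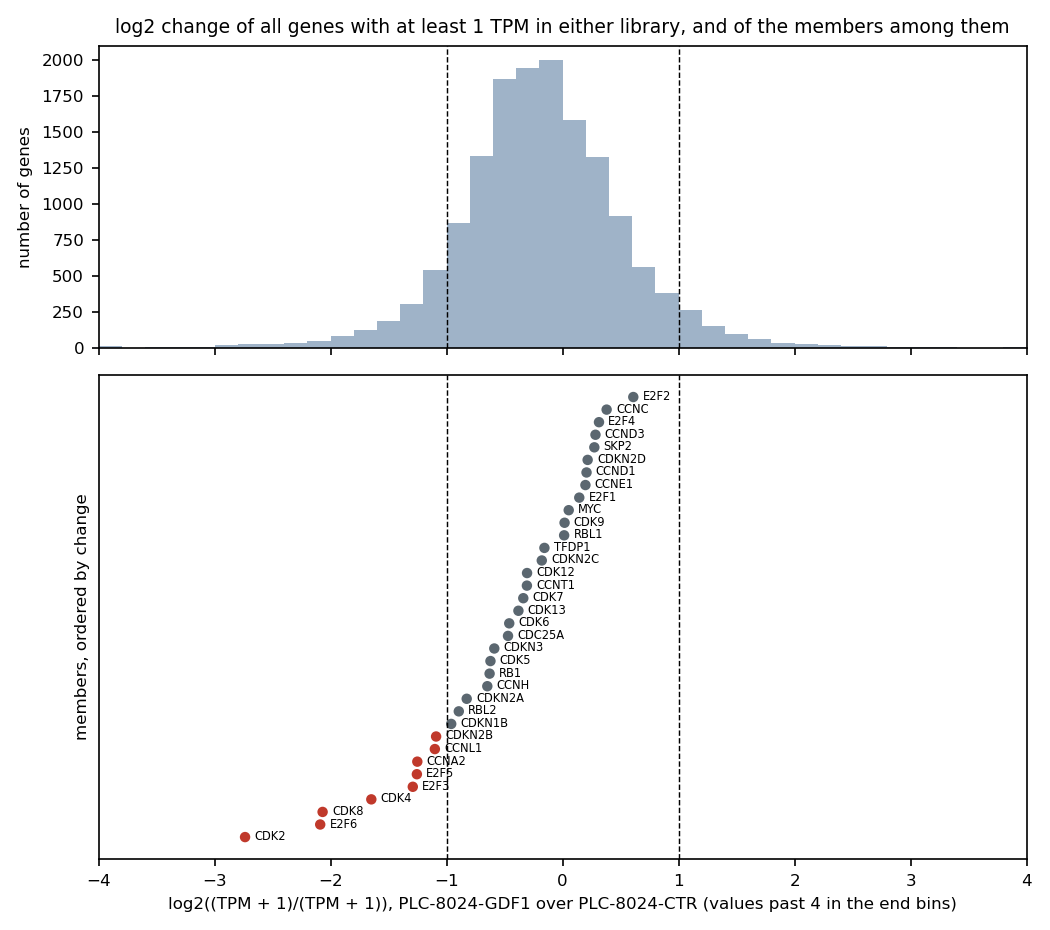
Upper panel, number of genes per 0.2 of log2 change for the 14929 genes that met the minimum of 1 TPM. Lower panel, the 36 members among them ordered by log2 change, with the 9 that fell in red; dashed lines mark 2-fold in each direction, and no member lies past the upper line.

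Among the INK4 inhibitors, CDKN2B was the gene that fell. It encodes the INK4 protein best known as a TGF-β target, and went from 3.30 to 1.02 TPM, 3.24-fold lower (log2 change -1.09). CDKN2A, its neighbour on chromosome 9, had the highest TPM of the inhibitor genes of the set, at 108.7 and 60.8 TPM (log2 change -0.83). CDKN2C was listed at 6.17 and 5.33 TPM (log2 change -0.18) and CDKN2D at 15.4 and 17.997 TPM (log2 change 0.22). CDKN2A held 81.4% of the added INK4 TPM in PLC-8024-CTR and 71.4% in PLC-8024-GDF1, and CDKN2D 11.5% and 21.1%. The INK4 genes added up to 133.6 and 85.2 TPM, which was 0.67 of the TPM of CDK4 and CDK6 in PLC-8024-CTR and 1.33 in PLC-8024-GDF1. TPM was given per gene, so transcripts of CDKN2A that encode different proteins were not told apart. How much of this sum encodes INK4 inhibitor is therefore not known.

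Of the CIP/KIP inhibitors in the set, CDKN1B, which binds cyclin E-CDK2, lay just inside 2-fold, at 11.8 and 5.55 TPM (log2 change -0.96, 2.12-fold lower as a plain ratio). CDKN1C, an imprinted gene, was under 1 TPM in both libraries (0.15 and 0.095 TPM). SKP2, the F-box protein that marks CDKN1B for degradation, was listed at 5.73 and 7.13 TPM (log2 change 0.27). CDKN3, a phosphatase that acts on CDK2, was listed at 34.1 and 22.3 TPM (log2 change -0.59). CDKN1A, the third CIP/KIP gene and no member of the set, was listed at 35.0 and 33.3 TPM (log2 change -0.07), which was above CDKN1B in both libraries.

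All 3 pocket proteins had low TPM. RB1 itself was at 1.21 TPM in the control and 0.43 TPM in the GDF1 line (log2 change -0.63, 2.83-fold lower as a plain ratio). RBL2, which pairs with E2F4 in resting cells, was listed at 4.20 and 1.79 TPM (log2 change -0.90, 2.34-fold lower). RBL1, which is most abundant in cycling cells, was listed at 2.54 and 2.57 TPM (log2 change 0.013). RBL1 therefore made up 32.0% of the added TPM of the pocket proteins in PLC-8024-CTR and 53.6% in PLC-8024-GDF1. The pocket proteins together were at 7.95 and 4.80 TPM, far below E2F1 alone.

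Of the activator E2Fs, E2F3 fell and E2F1 and E2F2 stayed within 2-fold. E2F1 was listed at 60.0 and 66.3 TPM (log2 change 0.14) and made up 90.5% and 91.5% of their added TPM. E2F2 had the highest log2 change of all members, 0.61, at 3.29 and 5.55 TPM, and 89.1% of all genes compared lay below it. E2F3 (ENSG00000112242; chromosome 6 of GRCh37, 20402110 to 20493945, plus strand) fell from 2.97 to 0.62 TPM, 4.79-fold (log2 change -1.29). The added TPM of the activators was 66.2 and 72.5.

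Of the other E2Fs, E2F5 and E2F6 fell. E2F4, the main E2F of resting cells, was listed at 40.8 and 50.9 TPM (log2 change 0.31). E2F6, a repressor that works without pocket proteins, fell from 10.7 to 1.74 TPM, 6.13-fold (log2 change -2.09), and 1.08% of all genes compared had a lower value. E2F6 (ENSG00000169016) spans 11584501 to 11606303 of chromosome 2 (GRCh37, minus strand). E2F5, which also binds pocket proteins, fell from 10.6 to 3.85 TPM, 2.75-fold (log2 change -1.26). E2F4 was at 3.83 times the TPM of E2F6 in PLC-8024-CTR and at 29.3 times in PLC-8024-GDF1, and its share of the added TPM of E2F4 to E2F8 was 65.1% and 89.3%.

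E2F7 and E2F8, atypical repressors expressed in S phase, were under 1 TPM in both libraries (0.14 and 0.11 TPM for E2F7, 0.52 and 0.39 TPM for E2F8). TFDP1, the dimer partner that most E2Fs need to bind DNA, was listed at 64.2 and 57.4 TPM (log2 change -0.16). TFDP1 and E2F1 were thus the most abundant of the E2F and DP genes in both libraries.

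**Figure D3:**
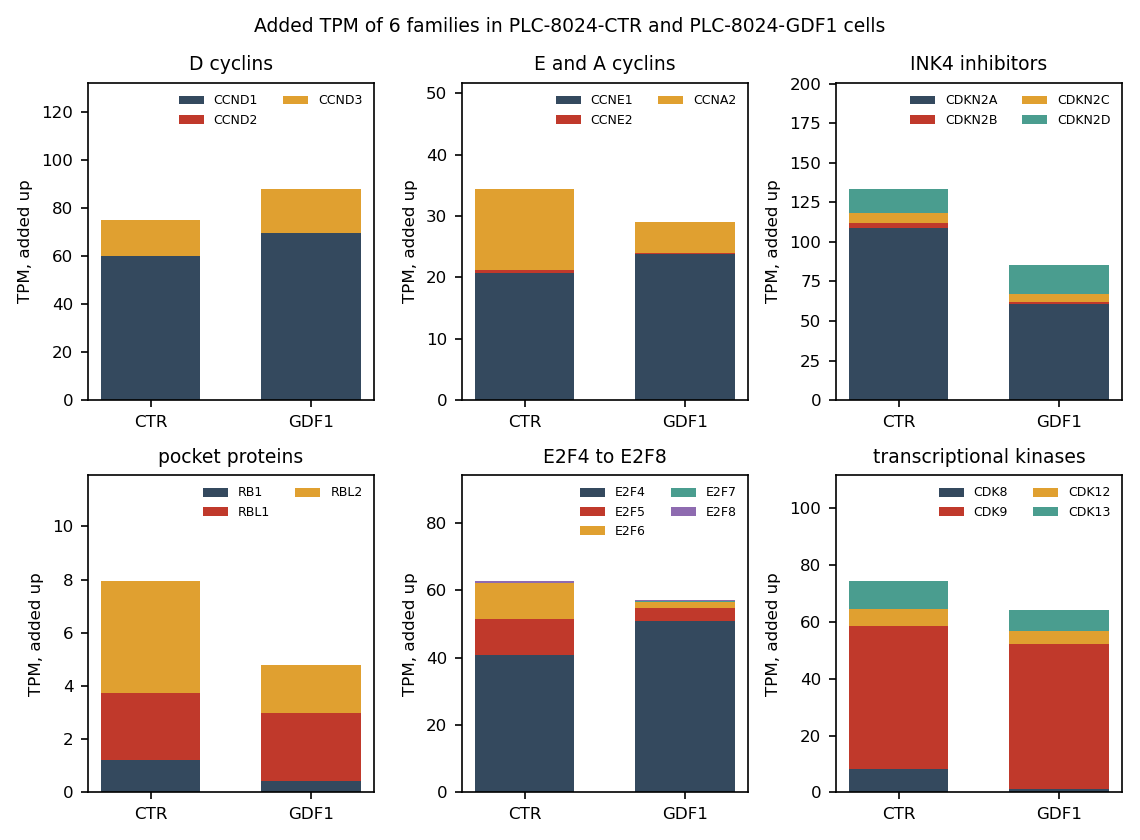
Added TPM of 6 families in PLC-8024-CTR (CTR) and PLC-8024-GDF1 (GDF1), with each gene as a coloured part of the bar. CCNE1 (20.7 and 23.8 TPM), E2F4 (40.8 and 50.9 TPM) and CDK9 (50.5 and 51.1 TPM) have parts of like height in both bars, while those of CCNA2, E2F5, E2F6 and CDK8 are smaller in GDF1.

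E2F genes are themselves E2F targets, and the promoters of the set were therefore searched for the E2F site. The letters searched were TTTCCCGC, TTTCGCGC, TTTGCCGC and TTTGGCGC on both strands, in the window from 250 bases before to 50 after each transcription start in RefSeq (GRCh38.p14). The 33 members with such a window, 7 of which had fallen, had 45 windows in all, since a gene can have several starts. By gene, 6 of the 33 members held a match (18.2%), against 3.99% of all 27305 genes with a window. By window, it was 6 of 45 (13.3%), against 3.31% of all 35116. These 6 were E2F1, E2F2, E2F3, RBL1, TFDP1 and CDC25A, of which E2F3 fell and the other 5 stayed within 2-fold. The genes were selected for their place in this pathway, so the share describes the set and not the effect of GDF1. The cell cycle homology element TTTGAA was found in 4 of the 33 members (12.1%, against 18.2% of all genes) and in 4 of their 45 windows (8.89%, against 15.2% of all windows), those of CCNC, CDKN3, E2F3 and RBL2. The SMAD box GTCTAGAC was found in 0 of the 33 members and in 0.26% of all genes, so 33 genes are too few to show a lower share. CDK2 and E2F5, which fell, had no window, nor had CCND1, CCND2, CCNE2, CDKN1C, E2F8 and MYC.

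The 120 bases just before the start are shown for these 6 genes, 5′ to 3′ on the strand of the gene, with the E2F matches in capitals. E2F1 and RBL1 carry 2 matches each and the others 1, and 1 of the 2 in E2F1 and those of E2F3 and TFDP1 are read on the opposite strand.
E2F1 (chr20:33686386-33686505, minus strand): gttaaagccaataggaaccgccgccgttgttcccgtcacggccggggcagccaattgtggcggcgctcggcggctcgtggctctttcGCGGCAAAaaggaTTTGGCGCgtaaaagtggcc
E2F2 (chr1:23531234-23531353, minus strand): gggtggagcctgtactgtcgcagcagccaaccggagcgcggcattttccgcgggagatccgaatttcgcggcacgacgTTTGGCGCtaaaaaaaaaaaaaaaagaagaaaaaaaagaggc
E2F3 (chr6:20401759-20401878, plus strand): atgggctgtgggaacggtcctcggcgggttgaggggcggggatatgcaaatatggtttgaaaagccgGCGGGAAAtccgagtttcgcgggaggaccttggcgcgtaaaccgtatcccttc
RBL1 (chr20:37095998-37096117, minus strand): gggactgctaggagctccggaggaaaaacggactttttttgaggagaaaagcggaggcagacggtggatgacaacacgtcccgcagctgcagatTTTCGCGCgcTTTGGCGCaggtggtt
TFDP1 (chr13:113584633-113584752, plus strand): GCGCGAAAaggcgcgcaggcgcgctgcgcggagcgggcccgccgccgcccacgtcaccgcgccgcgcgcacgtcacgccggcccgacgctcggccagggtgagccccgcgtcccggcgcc
CDC25A (chr3:48188418-48188537, minus strand): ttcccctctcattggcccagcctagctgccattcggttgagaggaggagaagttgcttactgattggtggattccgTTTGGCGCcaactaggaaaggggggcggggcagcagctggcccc

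The matches of E2F1 begin 33 and 20 bases before the start and those of RBL1 26 and 16 bases before it. E2F1, E2F2 and E2F3 thus all carry an E2F match near the start, and their log2 changes were 0.14, 0.61 and -1.29.

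The CDK-activating kinase consists of CDK7, cyclin H (CCNH) and MNAT1, and serves both the cell cycle CDKs and RNA polymerase II. CDK7 was at 13.8 and 10.7 TPM (log2 change -0.34), and CCNH at 27.9 and 17.4 TPM (log2 change -0.65). MNAT1, the assembly factor and no member of the set, fell from 11.7 to 5.07 TPM (log2 change -1.06). CCNH was at 2.02 and 1.63 times the TPM of CDK7.

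Of the kinases that act in transcription, CDK8 stood apart. CDK8, a kinase of the Mediator complex, fell from 8.12 to 1.17 TPM, 6.93-fold (log2 change -2.07), and 1.10% of all genes compared had a lower value. CDK8 (ENSG00000132964) spans 26828241 to 26995119 of chromosome 13 (GRCh37, plus strand). Its partner cyclin C (CCNC) was listed at 14.3 and 18.9 TPM (log2 change 0.38), the second highest log2 change of the set. CDK19, the paralog that can take the place of CDK8, was listed at 1.79 and 2.15 TPM. The 2 kinases together were at 9.91 and 3.32 TPM (log2 change -1.34), so that CCNC was at 1.44 times their added TPM in PLC-8024-CTR and at 5.68 times in PLC-8024-GDF1. MED13, which links this module to Mediator, fell from 5.04 to 1.74 TPM (log2 change -1.14).

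CDK9, the kinase that releases paused RNA polymerase II, was listed at 50.5 and 51.1 TPM (log2 change 0.016) and its partner cyclin T1 (CCNT1) at 2.23 and 1.605 TPM (log2 change -0.31). CDK12 and CDK13, which phosphorylate RNA polymerase II during elongation with cyclin K, were listed at 5.97 and 4.63 TPM (log2 change -0.31) and at 9.83 and 7.31 TPM (log2 change -0.38). Cyclin K (CCNK), no member of the set, was listed at 7.78 and 4.13 TPM (log2 change -0.78). Cyclin L1 (CCNL1), a cyclin tied to splicing, fell from 18.4 to 8.03 TPM, 2.29-fold (log2 change -1.10). CDK9 made up 67.9% of the added TPM of CDK8, CDK9, CDK12 and CDK13 in PLC-8024-CTR and 79.6% in PLC-8024-GDF1, and CDK8 10.9% and 1.83%.

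CDK5, a kinase known from neurons that does not drive the cell cycle, was listed at 91.2 and 58.9 TPM (log2 change -0.62). CDK5R1 and CDK5R2, the activators it needs there, were under 1 TPM in both libraries (0.47 and 0.34 TPM, and 0.13 and 0.56 TPM). MYC, the transcription factor that promotes entry into the cycle, was listed at 3.76 and 3.94 TPM (log2 change 0.052).

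The genes around the set were read from lists of its partners and targets, beside the 4.82% that rose, the 9.61% that fell and the median of -0.20 over all genes. Of 23 partners and regulators of G1 control, 22 reached 1 TPM, of which 1 rose and 3 fell, with a median log2 change of -0.13. CDC25B, a CDK phosphatase of later phases, rose from 18.7 to 47.1 TPM (log2 change 1.29). MXI1, a MYC antagonist, fell from 13.2 to 5.56 TPM (log2 change -1.12), and the others that fell were MNAT1 and CABLES1. Of the 13 partners of transcriptional kinases 12 reached 1 TPM, and 2 fell, MED13 and LARP7 (7.26 to 2.87 TPM), with a median of -0.43. Of the 20 E2F targets, all reached 1 TPM, none rose and 4 fell (20%), with a median of -0.40. The 4 were RRM2 (13.5 to 3.43 TPM, log2 change -1.71), TYMS (69.5 to 28.8 TPM), MCM4 (25.1 to 10.96 TPM) and MCM2 (18.8 to 8.30 TPM), which serve nucleotide supply and the replicative helicase. MYBL2 (139.2 and 146.5 TPM), MCM7 (161.9 and 167.2 TPM) and MKI67 (6.07 and 6.64 TPM) had log2 changes of 0.07, 0.05 and 0.11.

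The log2 change over all genes moved with the GC content of the transcripts, and the members were read against it. Each gene was given the GC content of its longest transcript, and the 11792 protein-coding genes over the minimum were split into 5 equal bins. Among genes of the lowest GC bin 13.99% fell and 1.74% rose, and among those of the highest 4.87% fell and 8.31% rose. The 9 members that fell had a GC content of 35.2% to 52.0% and lay in the 3 lower bins, where 2 of 10, 4 of 9 and 3 of 8 members fell, against 13.99%, 13.5% and 12.1% of all genes. None of the 6 and 3 members in the upper bins fell, where 8.27% and 4.87% of all genes fell. The 12 members above 0 ranged from 35.3% to 61.6% GC. CCNC (35.3%) and CCNL1 (35.2%) had log2 changes of 0.38 and -1.10 at nearly the same GC content, and CCNE1 (51.7%) and CDK2 (51.5%) had 0.20 and -2.74. With the GC trend subtracted, 5 members fell instead of 9, and 6.05% of all genes. CDK2 was then at -2.57, CDK8 and E2F6 at -1.78, CDK4 at -1.49 and E2F3 at -1.03. The part of GC content in the changes was not tested.

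The genes of the set were checked for neighbours whose reads could be counted with theirs. In GENCODE v44 on GRCh37, 14 members overlapped another gene with at least 1 TPM, in each case on the opposite strand, among them 5 of the 9 that fell. Whether the counting used strand is not given in the sources used here, and without strand the reads of such pairs cannot be told apart. CDK4 overlaps TSPAN31 (7.66 and 7.63 TPM) and MARCHF9 (34.6 and 30.2 TPM), CDK2 overlaps PMEL (4.31 and 2.96 TPM), and CCNA2 overlaps EXOSC9 (23.4 and 14.6 TPM). CDKN2A and CDKN2B both overlap CDKN2B-AS1 (3.76 and 1.41 TPM), and E2F5 overlaps RBIS (111.4 and 112.7 TPM). E2F6, CDK8, E2F3 and CCNL1 overlapped no such gene. The files listed 15 pseudogene copies named after members, none above 0.21 TPM.

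**Figure D4:**
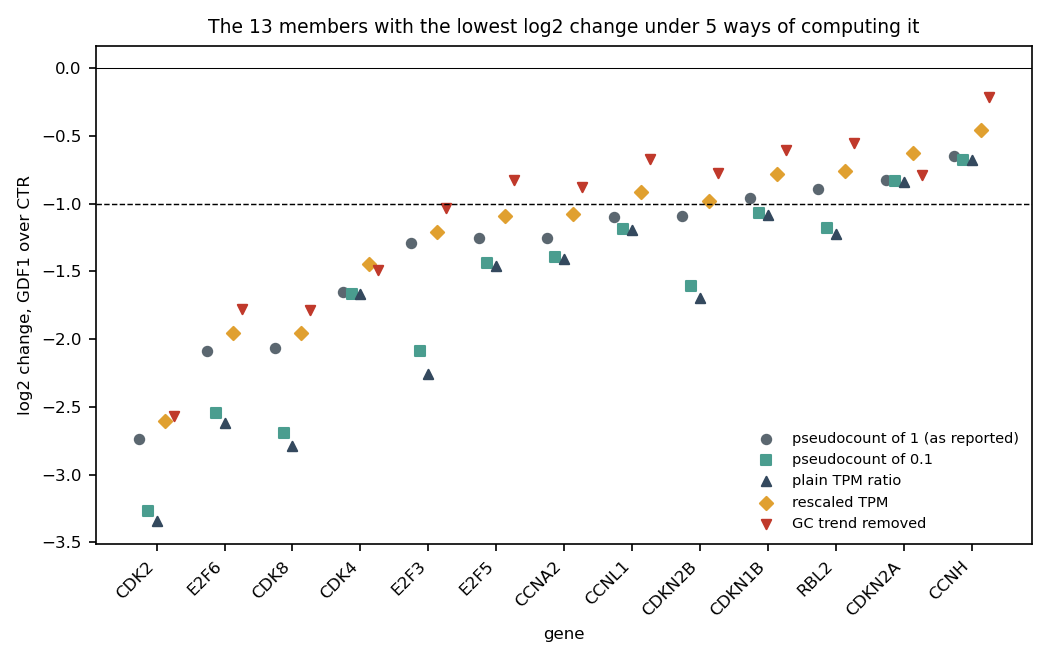
log2 change of the members with the lowest values, from CDK2 to CCNH, under 5 ways of computing it, with 2-fold as a dashed line. CDK2, E2F6, CDK8, CDK4 and E2F3 lie below the line under each, while CCNL1 and CDKN2B lie above it after rescaling and after removal of the GC trend.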

How the data were processed

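mRNA was selected with poly-T beads and sequenced as paired ends, 1 library per line. Per the methods and the submitters' processing notes, the authors filtered reads with Trimmomatic (version 0.36), aligned them to hg19 with HISAT2 (version 2.1.0), quantified them with StringTie (version 1.3.3b) and deposited TPM values per gene. RefSeq is the annotation named in the methods, but genes carry Ensembl identifiers. The columns are headed as mean TPM. No gene is at 0, most unexpressed genes share the value 0.0001, and 13 and 14 genes lie below it. Depth is not held in TPM.

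The 2 tables were joined on the gene identifier. Log2 changes used a pseudocount of 1 and a minimum of 1 TPM in either library. The genes named were the members, and partners past 2-fold or needed beside a member. MYBL2, MCM7, MKI67, NCL, NOLC1, FBL, ID1, ID2, ID3, CCNK, CCNL2 and CCNT2 were chosen after their values were seen. The members and lists were chosen with earlier results of these data known. Positions and GC content came from GENCODE v44 on GRCh37, which is hg19 and held 55726 of 58174 identifiers, and promoters from RefSeq (GRCh38.p14). The GC trend was a lowess fit with a span of 0.3. Python 3.11.15 with pandas 2.3.3, numpy 2.4.6 and statsmodels 0.14.6 was used. Only the 2-fold calls were tested on simulated data, with large changes planted in genes set to at least 5 TPM. The GC trend, rescaling, overlaps, promoter search and genes of lower TPM were not tested in this way. Other pseudocounts, minimums and scalings were tried. No replicate test was possible. A gene of the TGF-β response list is not reported here.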

Additional observations from a re-analysis of the deposited data

How the results depend on the processing

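No paired analysis was possible because only 1 PLC-8024-CTR and 1 PLC-8024-GDF1 library were analysed. No member rose over 2-fold under any setting. The members that fell, 9 as reported, numbered 12 with a pseudocount of 0.1 or the plain ratio, where CDKN1B, RB1 and RBL2 were added, 8 with at least 1 TPM in both libraries, 7 with at least 5 TPM, 7 with rescaled TPM and 5 with the GC trend removed. Rescaling multiplies TPM in PLC-8024-GDF1 by 1.15 and left out CDKN2B and CCNL1, and removal of the GC trend also left out CCNA2 and E2F5. The members' median was -0.32 with no minimum, -0.25 rescaled and -0.093 with the GC trend removed. The sum of CDKN1B and CDKN1C passed 2-fold with a pseudocount of 0.1 (-1.06) and the plain ratio (-1.08). CDKN1A, the CIP/KIP gene with the highest TPM (35.0 and 33.3), was not in this sum. The sum of E2F4 to E2F8 turned to 0.069 when rescaled. That of the member cyclins CCNC, CCNT1 and CCNL1 turned to 0.14 with the GC trend removed. Their relatives CCNL2 (50.2 and 28.8 TPM), CCNK (7.78 and 4.13 TPM) and CCNT2 (0.95 and 0.48 TPM), all lower in PLC-8024-GDF1, were not in it. TFDP1 turned positive with rescaled TPM and with the GC trend removed, and CCNE2, E2F7, E2F8, CDK7 and CCNT1 with the GC trend removed.

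Of the 14929 genes over the minimum, 720 rose and 1434 fell. With a pseudocount of 0.1 the numbers were 1167 and 2315, with the plain ratio 1229 and 2437, and with the GC trend removed 921 and 886 of 14640. With at least 5 TPM, 471 rose and 1041 fell of 9632. Of the 11792 protein-coding genes 479 rose and 1244 fell. With at least 1 TPM in both libraries, 474 rose and 1057 fell of 12867. Genes near 1 TPM, such as RB1, E2F3, CDK8 and CDKN2B in PLC-8024-GDF1, are the least certain. TPM does not carry the depth behind them, and read numbers per library were not used here.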

Other observations

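Targets of MYC and early TGF-β responses were read beside MYC and the cytostatic members. Of 10 MYC targets, all reached 1 TPM, none rose and 2 fell, where 4.82% of all genes rose and 9.61% fell. Their median log2 change was -0.54, against -0.20 for all genes, and MYC itself was at 0.052. Neither this list nor the E2F targets were matched to genes of like GC content. The median of protein-coding genes was -0.48 in the lowest GC bin and 0.11 in the highest. LDHA, a glycolytic enzyme, fell from 224.6 to 54.1 TPM (log2 change -2.03), and ODC1, the first enzyme of polyamine synthesis, from 391.8 to 186.3 TPM (log2 change -1.07). The nucleolar genes NCL (170.4 and 90.2 TPM) and NOLC1 (20.7 and 9.98 TPM) lay just inside 2-fold, and FBL (569.5 and 578.7 TPM) had a log2 change of 0.02.

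Among genes of the TGF-β response outside the members, SMAD7, an inhibitor of the pathway that TGF-β is known to induce, fell from 3.77 to 0.43 TPM (log2 change -1.74). ID3, an inhibitor of differentiation, was listed at 711.9 and 1335 TPM (log2 change 0.91) and CDKN1A at 35.0 and 33.3 TPM. Its relatives on the list were ID1, at 2107 and 2680 TPM (log2 change 0.35), and ID2, at 78.3 and 68.2 TPM (log2 change -0.20). SMAD7 and CDKN2B, both known for induction by TGF-β, were thus lower in PLC-8024-GDF1. SMAD7 reached 1 TPM only in PLC-8024-CTR, so it could enter the comparison only in the falling direction. CDKN2B lay inside 2-fold with rescaled TPM (-0.98) and with the GC trend removed (-0.78). The cause of the lower values was not tested.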
